A study of Schizosaccharomyces pombe with 8 samples.

Results

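Loss of ppt1, the gene of the prenyl transfer step of coenzyme Q synthesis, was compared with wild type in the fission yeast Schizosaccharomyces pombe. The comparison takes the 2 Δppt1 and the 2 wild-type arrays of a series of 8, pairs them by slide and covers all 4940 genes measured on each array. The wild type, strain PR110, is h+ with leu1-32 and ura4-D18. OG1, the Δppt1 strain, has the same background with ppt1::kanMX6. Each of the other disruptants was used only to show where Δppt1 differs from another altered strain. They are YMP41 (Δcgs1, cgs1::ura4) and YMP37 (labelled Δpka1, pka1::ura4), each with 2 arrays and the same mating type and auxotrophic alleles. Both therefore carry ura4, which PR110 and OG1 lack, whereas kanMX6 is carried by OG1 alone. Loss of ppt1 and presence of kanMX6 cannot be told apart here, and Δppt1 is represented by 1 strain. All strains were grown in YES, a rich medium, in rotated 50 mL cultures at 30 °C, and were harvested after 8 hours, in logarithmic phase. Replicates came from separate cultures. Total RNA was copied into cDNA of both strands and labelled with Cy3, so transcripts from the opposite strands of a locus cannot be told apart.

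Coenzyme Q is a lipid of the inner mitochondrial membrane that carries electrons from several dehydrogenases to complex III of the respiratory chain. It is made by joining a polyprenyl tail to p-hydroxybenzoate, the step that Ppt1 catalyses, followed by modification of the ring. Fission yeast has no proton-pumping complex I, and single-subunit NADH dehydrogenases deliver electrons to the quinone. Beyond respiration, coenzyme Q acts as an antioxidant in membranes, accepts electrons from dihydroorotate in pyrimidine synthesis and takes them from sulfide through the sulfide:quinone oxidoreductase Hmt2. Fission yeast cells without coenzyme Q are known to grow poorly on minimal medium, to be sensitive to oxidants and to accumulate sulfide. They can grow by fermentation on glucose, which rich medium supplies.

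The signal of ppt1 itself was read first. It was 32691 and 41517 in wild type (slide 1, then slide 2, in this and every pair below) and 2497 and 1910 in Δppt1. Both Δppt1 arrays were far below the lowest wild-type array, a fall of at least 14.8-fold (log2 difference -4.08, SE 0.19, adjusted p = 0.000678). Signal is the deposited intensity on a linear scale, log2 differences are Δppt1 minus wild type, and p-values come from limma with slide as a block, adjusted over the 4940 genes. The value 2497 is the highest signal of a deleted gene on these arrays, and a gene no brighter than that on either array of the strain is called at background, with its fold given from that limit as "at least". SPBC3F6.01c, an unrelated phosphatase gene known by the same symbol, read 37235 and 42182 in wild type against 34602 and 40542 in Δppt1, with overlapping arrays (-0.08, SE 0.04, adjusted p = 0.216). The gene ura4 was at background in both strains, as their genotype gives it, at 1362 and 1627 in wild type against 1307 and 1000 in Δppt1. Signals of leu1, pka1 and cgs1 were not called (adjusted p = 0.291, 0.313 and 0.787). On slide 2 the array positions in the titles and in the deposited tables differ for the disruptants. The strain given by the labels was kept here, and signals of ppt1, ura4 and cgs1 go with it. The signal of pka1 did not show its disruption on the arrays labelled Δpka1 (38387 and 46832), so those keep the word "labelled".

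Array medians were 21210 and 25475 in wild type against 21580 and 24677 in Δppt1, and a control of random sequence read from 821 to 1268 over the 8 arrays. Slide 2 was brighter than slide 1 by 0.22 on the log2 scale over all strains. Replicates correlated across genes with r = 0.994 in wild type and 0.991 in Δppt1, and Δppt1 with wild type of the same slide with 0.978 and 0.976. Genes are not independent replicates, so these are descriptions. Of the 4940 genes, 458 (9.27%) came, as the mean of either strain, within 10% of the brightest signal. Those genes are called near the top of the scale, where differences are compressed. Another 102 genes (2.06%) were at background in both strains.

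Of the 4940 genes, 636 (12.9%) were called at an adjusted p below 0.05, 273 of them higher in Δppt1 (5.53%) and 363 lower (7.35%). The sign was equal on both slides for every called gene. The call itself favours this, since it sets the mean of the slide differences against a spread that includes their disagreement. The arrays of the strains did not overlap for 506 of the called genes, against 1215 of all genes (24.6%). Most differences were small. Only 39 called genes differed at least 2-fold, 26 higher and 13 lower, and 241 differed by less than 0.3 on the log2 scale. The median over all genes was -0.02. The count rests on the slide term, since 50 genes (1.01%) were called without it, 34 higher and 16 lower, and all 50 were among the 636. It also moved with single arrays. It was 394 without wild-type replicate 1, 186 without wild-type replicate 2, 402 and 267 without Δppt1 replicate 1 and 2, 204 without either Δcgs1 array and 300 without either array labelled Δpka1. There were 142 genes, 74 higher and 68 lower, that were called whichever 1 of the 8 arrays was left out. These are described below as held in every leave-out. The leave-outs are not all distinct. Either Δcgs1 array gives the same fit when left out, and so does either array labelled Δpka1. Those leave-outs keep the difference from wild type and change only its SE and p-value.

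**Figure D1:**
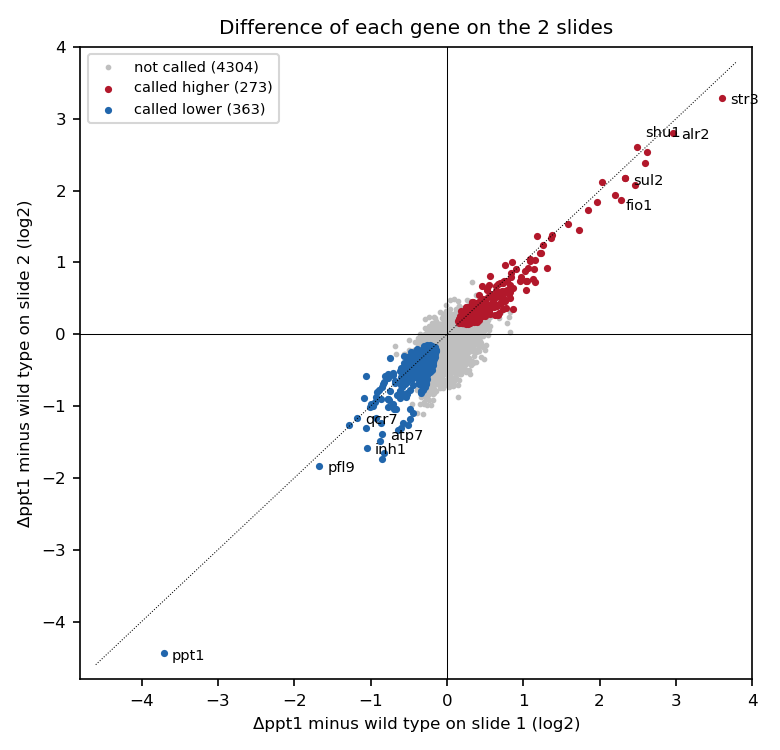
Each point is 1 gene, with its log2 difference of Δppt1 minus wild type on slide 1 (horizontal) and on slide 2 (vertical). The dotted line marks equal differences. The 273 genes called higher (red) and the 363 called lower (blue) lie in the quadrants of equal sign, with ppt1 alone at the lower left and str3 farthest at the upper right, and the 4304 genes not called are grey.

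Genes of iron and haem uptake were among the largest rises. Fission yeast takes up iron by reducing it at the surface and importing it through an oxidase and permease pair, by making and retrieving the siderophore ferrichrome, and by taking up haem. Of 15 genes of these routes and their regulation, 10 rose in Δppt1 (66.7%, against 5.53% of all genes) and none fell. The median log2 difference was 0.82 against -0.02 over all genes, and the rises include the regulator gene php4. Of these 10, 8 held in every leave-out and 6 were called without the slide term. The count was 10 or 11 under 3 other normalizations and with an offset of 500.

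The gene str3, for a cell-surface haem transporter of the siderophore transporter family, had the largest difference of any gene that rose. It read 4320 and 5768 in wild type against 52509 and 56377 in Δppt1. The lowest Δppt1 array was above the highest of all 6 other arrays (log2 difference 3.45, SE 0.15, adjusted p = 0.000646). Its neighbour in the genome, shu1, encodes a surface protein that takes up haem. Signal of shu1 was at background in wild type at 1737 and 1847 and reached 9719 and 11218 in Δppt1. Δcgs1 and the arrays labelled Δpka1 were also at background for shu1, with 1462 to 1900, so that the Δppt1 arrays stood alone (at least 4.18-fold higher than wild type, adjusted p = 0.000646).

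All 4 genes of reductive iron uptake rose and held in every leave-out. The iron permease gene fip1 read 12952 and 16381 in wild type against 63004 and 59844 in Δppt1 (2.08, SE 0.11, adjusted p = 0.00109). The ferroxidase gene fio1, which lies beside fip1, read 13255 and 15062 in wild type against 60921 and 57645 in Δppt1 (2.07, SE 0.09, adjusted p = 0.000646). Both were near the top of the scale in Δppt1, and the wild-type arrays lay well below. Signal of the ferric reductase gene frp1 was 14694 and 16938 in wild type against 57243 and 60895 in Δppt1 (1.90, SE 0.06, adjusted p = 0.000455), and it too was near the top of the scale in Δppt1. For the related gene frp2, it was 5534 and 6764 against 11793 and 13732 (1.06, SE 0.08, adjusted p = 0.00329). The arrays of wild type and Δppt1 did not overlap for any of the 4 (24.6% of all genes did not).

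Siderophore genes rose by less. The adjacent genes sib1 (ferrichrome synthetase, 0.82, SE 0.05, adjusted p = 0.00156) and sib2 (ornithine oxygenase, 0.85, SE 0.04, adjusted p = 0.000678) rose and held in every leave-out, but neither was called without the slide term (adjusted p = 0.0954 and 0.153). In sib2, signal went from 26455 and 33358 to 47293 and 60434. The transacylase gene sib3 read 50163 and 54966 in wild type against 48176 and 55739 in Δppt1, with overlapping arrays (-0.02). The ferrichrome transporter gene str1 was already bright in wild type, at 46421 and 50866, and read 62638 and 64325 in Δppt1 (0.39, SE 0.08, adjusted p = 0.0425). Its call was lost without any 1 of the wild-type, Δppt1 or labelled Δpka1 arrays. The ferrioxamine transporter gene str2 was not called (0.27, adjusted p = 0.0539).

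Among regulators of iron, php4, whose product represses iron-using genes when iron is scarce, read 25469 and 31379 in wild type against 32462 and 38861 in Δppt1. The difference was called (0.33, SE 0.07, adjusted p = 0.0392), but not when any 1 of the 8 arrays was left out. The gene fep1, for the repressor of iron uptake genes, read 35339 and 42738 in wild type against 37260 and 39634 in Δppt1, and its arrays overlapped (-0.02, adjusted p = 0.924). The remaining 2 members were not called, fra2 at -0.39 (adjusted p = 0.13) and hry1, which was at background in both strains. Among 24 genes that use iron or assemble iron-sulfur clusters, none rose and 3 fell (12.5%, against 7.35% of all genes). The 3 were rip1 (-0.79), the vacuolar iron transporter gene pcl1 (-0.40) and tim18, a complex II subunit (-0.19), and only rip1 held in every leave-out.

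Set directly against the other disruptants, 10 of the 15 uptake and regulator genes were higher in Δppt1 than in Δcgs1 (6.28% of all genes were). Against the arrays labelled Δpka1, 9 were higher (22.4% of all genes) and hry1 was lower. For str3 the differences were 3.94 (adjusted p = 0.000671) and 3.30 (adjusted p = 0.000151). For frp1, compressed by its level in Δppt1, they were 1.96 (adjusted p = 0.000348) and 0.59 (adjusted p = 0.00154), and the arrays labelled Δpka1 read 36743 and 42031, between wild type and Δppt1. For str1 no difference from the arrays labelled Δpka1 was called (0.04, adjusted p = 0.772), with both strains near the top of the scale.

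**Figure D2:**
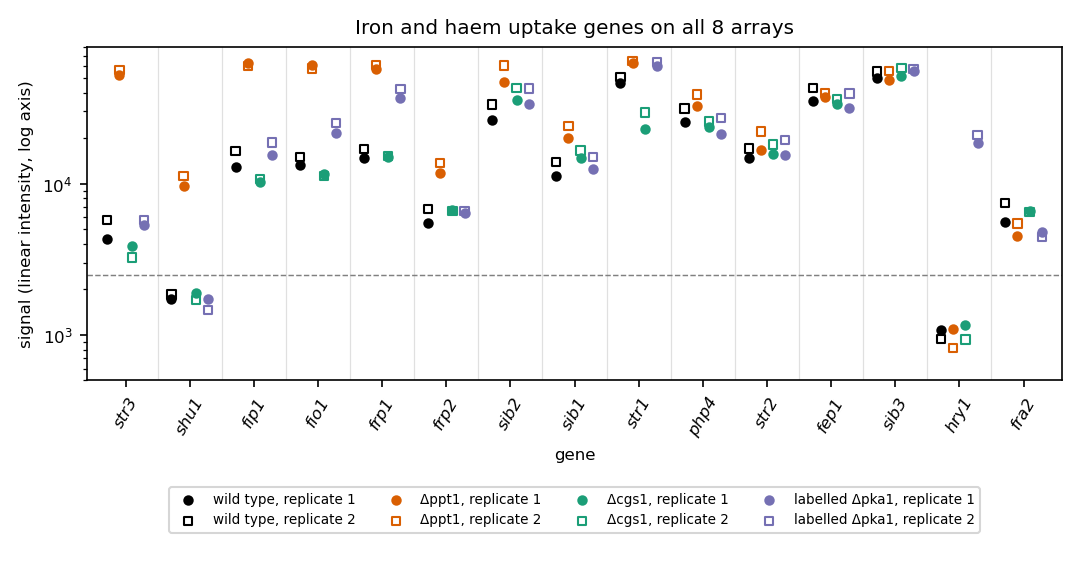
Signal of the 15 genes of iron and haem uptake and its regulation on all 8 arrays (vertical log axis, linear intensity). There is 1 colour per strain, with filled circles for replicate 1 and open squares for replicate 2. The dashed line is the background limit of 2497. The Δppt1 arrays (orange) lie above all other arrays for str3, shu1, fip1, fio1, frp1, frp2, sib1 and sib2, and among the others for fep1 and sib3.

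The respiratory chain downstream of coenzyme Q went the other way. In complex III, cytochrome c and complex IV, 15 of 27 nuclear genes fell (55.6%, against 7.35% of all genes) and none rose, with a median of -0.40. Of the 15, 6 held in every leave-out, and the count was 6 without wild-type replicate 2 and 9 without either Δcgs1 array. Only 2, rip1 and cox5, were called without the slide term. Under 3 other normalizations and an offset, 16 or 17 fell. Genes encoded in the mitochondrial genome were not analysed here.

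Subunits and the factors that assemble them were then counted apart, a split made after the values were seen and not tested. Of 9 complex III subunits 8 fell (median -0.66), of 6 complex IV subunits 5 fell (median -0.80), and of 11 assembly factors 2, cox1101 and cyc3, fell (median -0.04). For all 9 complex III subunits the arrays of the strains did not overlap, against 24.6% of all genes. The subunit gene qcr7 read 33924 and 46723 in wild type against 15009 and 20857 in Δppt1 (-1.17, SE 0.06, adjusted p = 0.00123). Signal of rip1, the Rieske iron-sulfur protein of complex III, went from 55480 and 57665 to 30712 and 34787 (-0.79, SE 0.05, adjusted p = 0.0016). Both held in every leave-out. The gene of cytochrome c1, cyt1, was near the top of the scale in wild type, at 58424 and 61721, and read 39662 and 49874 in Δppt1 (-0.43, SE 0.08, adjusted p = 0.0321). The core subunit gene qcr1 did not reach the threshold (-0.47, SE 0.11, adjusted p = 0.0534). Its 2 Δppt1 arrays, 35991 and 48802, were nevertheless both below wild type at 56905 and 59228.

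In complex IV, cox4 read 19976 and 27057 in wild type against 10510 and 12009 in Δppt1 (-1.05, SE 0.07, adjusted p = 0.00244). Changes of like size were seen in cox5, from 38483 and 44255 to 21071 and 18895 (-1.05, SE 0.09, adjusted p = 0.0036), and cox13, from 29311 and 37421 to 14572 and 18527 (-1.01, SE 0.07, adjusted p = 0.0025). Every Δppt1 array of these 3 subunit genes was below every other array of the series, and the 3 calls held in every leave-out. The smaller falls of cox6 (-0.43, adjusted p = 0.048) and cox9 (-0.58, adjusted p = 0.0192) did not. For cox12 the wild-type arrays read 1735 and 2655 and the Δppt1 arrays were at background with 1722 and 1648, and no difference was called (-0.35, adjusted p = 0.224). Cytochrome c itself, cyc1, was near the top of the scale (59111 and 61457 against 46719 and 57717) and was not called (-0.21, adjusted p = 0.148). The haem lyase gene cyc3, which attaches haem to it, fell (-0.40, adjusted p = 0.014).

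ATP synthase, which uses the proton gradient to make ATP, showed the same direction. Of 17 genes 10 fell and none rose (58.8%, against 7.35% of all genes, median -0.54), 7 of them held in every leave-out, and 3 were called without the slide term. Of the 8 genes of the membrane part and peripheral stalk 7 fell, with a median of -0.74. The strains did not overlap in any of the 8 (24.6% of all genes did not). Signal of atp7, a stalk subunit, went from 15664 and 20519 to 8668 and 7840 (-1.12, SE 0.14, adjusted p = 0.0107), a call lost without wild-type replicate 2 (adjusted p = 0.06). That of the stalk subunit atp4 went from 44801 and 53234 to 21113 and 28704 (-0.99, SE 0.08, adjusted p = 0.00303). For the stalk subunit gene atp14, the pairs were 35206 and 39064 in wild type against 18269 and 20302 in Δppt1 (-0.95, SE 0.04, adjusted p = 0.000646). In each of the 3 genes both Δppt1 arrays were below all 6 other arrays.

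In the catalytic head, the α and β subunit genes atp1 and atp2 were near the top of the scale in both strains, at 56892 or more on every array, where a change is compressed, and were not called (-0.05 and -0.08). In the central stalk atp16 fell (-0.77, SE 0.05, adjusted p = 0.00156) and atp3 fell (-0.54, adjusted p = 0.0389), the latter lost in 7 of the 8 leave-outs. The assembly factor genes atp10, atp11 and atp12 were at 0.05 to 0.06 and not called. The inhibitor of the enzyme when it runs in reverse, inh1, read 5034 and 6278 in wild type and was at background in Δppt1 at 2431 and 2102, a fall of at least 2.25-fold (adjusted p = 0.00534) that held in every leave-out.

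Cristae, the folds of the inner membrane that carry these complexes, are shaped by the MICOS complex. Its 4 genes on the array, a list added after the values were seen, all fell (median -0.71). Signal of mic26 went from 18013 and 21117 to 8677 and 8549 (-1.18, SE 0.07, adjusted p = 0.00156), and that of mic19 from 13930 and 14438 to 7094 and 7217 (-0.99, SE 0.06, adjusted p = 0.00156). Both were also called without the slide term. The smaller falls were those of mic60 (-0.43) and mic10 (-0.33, lost without wild-type replicate 2). The strains did not overlap in any of the 4 (24.6% of all genes did not).

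Directly against Δcgs1, 15 of the 27 complex III and IV genes, 11 of the 17 ATP synthase genes and all 4 MICOS genes were lower in Δppt1 (14.3% of all genes were). Against the arrays labelled Δpka1, 18, 11 and 4 were lower (16.1% of all genes) and 2, 1 and 0 were higher. The arrays labelled Δpka1 read above wild type for several of these genes. For qcr7 they read 45431 and 54256, so the difference from Δppt1 was larger there, at -1.49 (adjusted p = 0.000136), than the -1.05 against Δcgs1 (adjusted p = 0.00136).

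**Figure D3:**
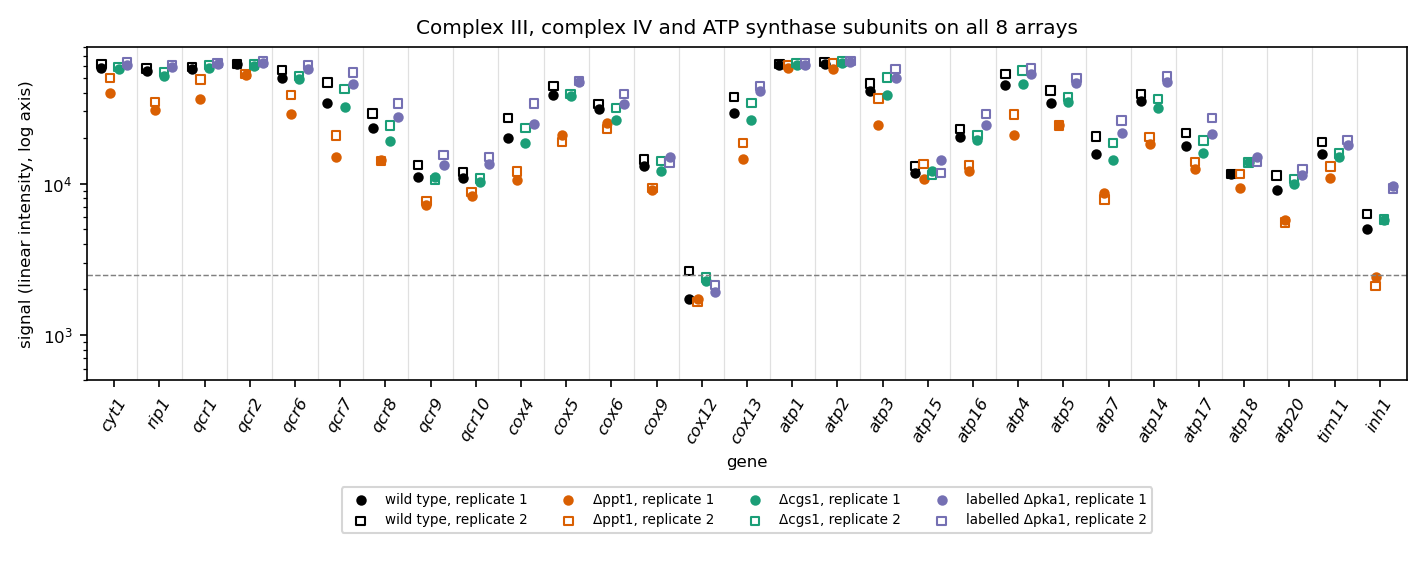
Signal of the subunit genes of complex III, complex IV and ATP synthase and of inh1 on all 8 arrays (vertical log axis, linear intensity), with colours per strain and symbols per replicate. The dashed line is the background limit of 2497. The Δppt1 arrays (orange) lie below the wild-type arrays (black) for most subunits, such as qcr7, cox4 and atp7, and among them for atp1 and atp15.

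Upstream of coenzyme Q stand the dehydrogenases that reduce it. Of 11 genes 5 fell (45.5%, against 7.35% of all genes) and none rose (median -0.19). The internal NADH dehydrogenase gene ndi1 read 36536 and 42872 in wild type against 19658 and 25031 in Δppt1 (-0.84, SE 0.06, adjusted p = 0.0025). The gene of the glycerol-3-phosphate dehydrogenase of mitochondria, gut2, went from 37336 and 43047 to 26041 and 27877 (-0.57, SE 0.05, adjusted p = 0.00369). These 2 held in every leave-out, with no overlap between the strains. The other 3 falls, of the complex II subunit genes sdh3 (-0.42) and tim18 (-0.19) and of cir2 (-0.19, electron transfer from flavoprotein), did not. The count was 2 without wild-type replicate 1 or 2, Δppt1 replicate 1 or either Δcgs1 array, 3 without either array labelled Δpka1, and 0 without the slide term. The external NADH dehydrogenase gene nde1 was near the top of the scale and not called (-0.21, adjusted p = 0.102).

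The genes of quinone-linked enzymes outside respiration showed no call. The sulfide:quinone oxidoreductase gene hmt2 was near the top of the scale, at 58151 and 60426 in wild type against 60904 and 61706 in Δppt1 (0.05, SE 0.04, adjusted p = 0.446). For ura3, the dihydroorotate dehydrogenase gene, the 4 arrays overlapped at 62528 to 64273 (-0.00, SE 0.04, adjusted p = 0.966). At these levels a rise would not be visible, while a large fall would. The proline dehydrogenase gene put1 (-0.13), sdh1 (-0.02) and sdh2 (-0.11) were not called.

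Of 13 genes of coenzyme Q synthesis only ppt1 was called, and it fell. The decaprenyl diphosphate synthase genes dps1 and dlp1, which make the tail, were at -0.08 (SE 0.09) and -0.05 (SE 0.05). The ring-modifying and accessory genes ran from coq6 at -0.21 (SE 0.05, adjusted p = 0.0597) to coq7 at 0.24 (SE 0.06, adjusted p = 0.0689), both hydroxylase genes. Signal of coq7 was 17722 and 22972 in wild type against 21369 and 26407 in Δppt1, with overlapping arrays. For coq6 it was 32470 and 35358 against 28471 and 30088, without overlap. The rest were coq8 (0.15), coq3 (0.08), coq4 (0.03), coq11 (-0.00), coq10 (-0.03), coq5 (-0.05), coq9 (-0.15) and coq12 (-0.15). The 12 genes besides ppt1 had an SE of 0.04 to 0.11, and differences of several SE, such as those of coq7 and coq6, did not reach the threshold. Their calls also depended on the setting. Under other normalizations up to 2 were called higher, coq7 and coq8, and coq6 was called lower, as it was with an intensity trend in the variance, while coq9 was called lower without Δppt1 replicate 1.

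The tricarboxylic acid cycle, which feeds complex II and the NADH dehydrogenases, moved in few genes. Of 19 genes 4 fell and none rose (21.1%, against 7.35% of all genes, median -0.08). Those of 3 enzymes held in every leave-out, namely lsc2 (succinyl-CoA ligase, -0.55, adjusted p = 0.00471), kgd2 (2-oxoglutarate dehydrogenase, -0.48, adjusted p = 0.00696) and fum1 (fumarase, -0.47, adjusted p = 0.00729). In kgd2, signal went from 49050 and 52873 to 34771 and 38362, with no overlap. The malate dehydrogenase gene mdh1 (-0.27, adjusted p = 0.0395) lost its call whichever array was left out. None of the 4 was called without the slide term.

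Defence against peroxide and superoxide rose in part. Of 33 genes 12 rose and 2 fell (42.4% called, against 12.9% of all genes, median 0.12), 4 and 2 of these in every leave-out. The number that rose was 5 without wild-type replicate 2, 6 without wild-type replicate 1, 7 without Δppt1 replicate 1 or either Δcgs1 array, and 2 without the slide term. The 2 called without the slide term were srx1 and caf5, a transporter gene that is counted again among the exporters below. Sulfiredoxin, encoded by srx1, repairs peroxiredoxin that peroxide has overoxidised. Its signal was 4020 and 4970 in wild type against 24743 and 28888 in Δppt1 (2.58, SE 0.10, adjusted p = 0.000646), while the other 4 arrays read 3739 to 4027.

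**Figure D4:**
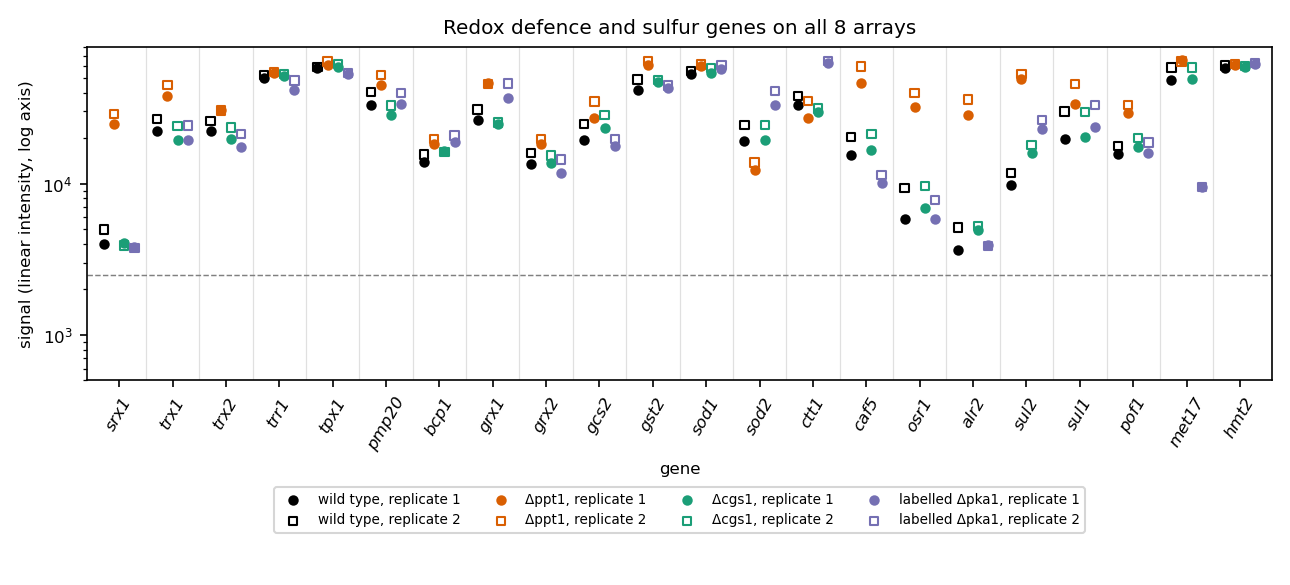
Signal of genes of redox defence and sulfur metabolism, with osr1 and alr2, on all 8 arrays (vertical log axis, linear intensity), with colours per strain and symbols per replicate. The dashed line is the background limit of 2497. The Δppt1 arrays (orange) stand above all others for srx1, caf5, osr1, alr2 and sul2, below the wild type for sod2, and near the top of the scale for tpx1, met17 and hmt2.

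The thioredoxin gene trx1 read 22196 and 26832 in wild type against 38200 and 44751 in Δppt1 (0.76, SE 0.04, adjusted p = 0.00109). The peroxiredoxin tpx1, the substrate of sulfiredoxin, was near the top of the scale and not called (0.09, adjusted p = 0.194). The rises of srx1, caf5, trx1 and the peroxiredoxin gene pmp20 (0.41, adjusted p = 0.00541) held in every leave-out. The glutaredoxin gene grx1 went from 26296 and 30830 to 46108 and 45448 (0.69, SE 0.09, adjusted p = 0.0125), a call lost without either wild-type array. The glutathione genes gcs2 (0.49, adjusted p = 0.0115), a subunit of glutamate-cysteine ligase, and gst2 (0.47, adjusted p = 0.0107), a glutathione transferase, also rose. Neither held in every leave-out, since gcs2 was lost without wild-type replicate 2, Δppt1 replicate 2 or either Δcgs1 array, and gst2 without Δppt1 replicate 2.

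Not all antioxidant genes rose. The mitochondrial superoxide dismutase gene sod2 fell, from 19012 and 24526 to 12317 and 13828 (-0.73, SE 0.06, adjusted p = 0.00332). Its arrays did not overlap, and the call held in every leave-out. The cytosolic dismutase gene sod1 was near the top of the scale and not called (0.16, adjusted p = 0.0593), and the catalase gene ctt1 was not called (-0.20, adjusted p = 0.223). Among regulators, the peroxide-responsive factor gene pap1 was called (0.27, adjusted p = 0.0244), with no leave-out keeping the call, while hba1, whose product takes part in the nuclear export of Pap1, fell in every leave-out (-0.44, adjusted p = 0.00497).

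Exporters were among the rises too. Of 14 drug and multidrug transporter genes 5 rose and none fell (35.7%, against 5.53% of all genes, median 0.08), and the count was 2 or 3 in each leave-out and 2 without the slide term. The transporter gene caf5, known for caffeine resistance, went from 15540 and 20414 to 46466 and 59397 (1.56, SE 0.06, adjusted p = 0.000646). For abc3, an ABC transporter of the vacuole, signal went from 21832 and 26001 to 45799 and 49257 (1.00, SE 0.07, adjusted p = 0.00222). In both genes each Δppt1 array was above every other array of the series, and both calls held in every leave-out. The others, pmd1 (0.37), abc1 (0.32) and hmt1 (0.18), did not hold in every leave-out.

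Sulfur metabolism was called in both directions, with rises in uptake. Of 24 genes 6 rose and 2 fell (33.3% called, against 12.9% of all genes, median 0.04). Of these, 3 and 1 held in every leave-out. The rises numbered 3 without wild-type replicate 2 or either Δcgs1 array, and 2 without the slide term. The sulfate permease gene sul2 read 9774 and 11813 in wild type against 49319 and 53159 in Δppt1 (2.25, SE 0.05, adjusted p = 0.000294). The Δcgs1 arrays read 15821 and 18014 and those labelled Δpka1 23074 and 26212, so Δppt1 was above all others (1.60, adjusted p = 0.000348, and 1.06, adjusted p = 0.000163). The second permease gene, sul1, went from 19797 and 29936 to 33635 and 45676 (0.69, SE 0.05, adjusted p = 0.00278). The gene pof1, for an F-box protein that directs the degradation of Zip1, a transcription factor of sulfur metabolism, went from 15707 and 17723 to 29393 and 33196 (0.90, SE 0.04, adjusted p = 0.000646).

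The enzymes that reduce sulfate once it is inside the cell were not called. The genes sua1, met14, met16, sir1 and met10 lay between 0.01 and 0.09. Of these, sua1 and sir1 were near the top of the scale in both strains and met10 in Δppt1, where a rise is compressed. The homocysteine synthase gene met17 was near the top of the scale in Δppt1, at 65143 and 64261 against 48531 and 58595 in wild type, and was not called (0.28, SE 0.09, adjusted p = 0.11). The cysteine synthase gene cys12 rose (0.25, adjusted p = 0.0395) but in no leave-out, and cys2 rose (0.33, adjusted p = 0.0209) in 3 of 8. Of the 2 falls, that of the methylenetetrahydrofolate reductase gene met11 held in every leave-out. It went from 43390 and 51622 to 28462 and 36125 (-0.56, SE 0.05, adjusted p = 0.00497). The other was met8 (-0.26, adjusted p = 0.0251), called in 1 leave-out of 8.

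Several of the largest rises lay outside these groups. The gene alr2 read 3625 and 5138 in wild type against 28262 and 35902 in Δppt1 (2.88, SE 0.14, adjusted p = 0.000678). For osr1 the pairs were 5802 and 9392 against 32111 and 39577 (2.27, SE 0.10, adjusted p = 0.000646). No array of another strain was above 5226 for alr2 or 9671 for osr1. Genes without a symbol followed. SPBPB2B2.08 was at background in wild type and reached 10868 and 11656 (at least 4.51-fold higher, adjusted p = 0.00166). SPBPB10D8.02c (2.26), SPCC663.08c (2.08) and SPBC23G7.10c (1.79) rose with adjusted p-values of 0.000455, 0.00304 and 0.000645. SPBPB2B2.05 (1.59, adjusted p = 0.0208) was called in only 3 of the 8 leave-outs. All 15 of the largest rises were called without the slide term, but only 7 of the 15 largest falls.

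Among the largest falls, pfl9, a gene of the flocculin family of cell-surface adhesins, read 13549 and 15886 in wild type against 4244 and 4461 in Δppt1 (-1.75, SE 0.06, adjusted p = 0.000645). Of 22 flocculin and adhesin genes 7 fell and none rose (31.8%, against 7.35% of all genes, median -0.07), 3 of them in every leave-out, and the count was 3 without wild-type replicate 2 or either Δcgs1 array, 4 without Δppt1 replicate 2, and 2 without the slide term. The genes ftm1 (-0.90, adjusted p = 0.00497) and ftm5 (-0.89, adjusted p = 0.0061) held in every leave-out. The fall of pfl6 (-1.19, adjusted p = 0.0315) did not. For pfl9 the arrays of the other disruptants read 5789 to 7222, also below wild type. Δppt1 was still lower, by 0.73 than Δcgs1 (adjusted p = 0.00285) and by 0.45 than the arrays labelled Δpka1 (adjusted p = 0.00447).

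Among 24 genes that respond to nitrogen or take up amino acids and peptides, 6 fell, 2 rose and 16 were not called (33.3% called, against 12.9% of all genes), and the median of -0.03 was close to that of all genes. The oligopeptide transporter gene isp4 read 50314 and 53784 in wild type against 20599 and 22333 in Δppt1 (-1.28, SE 0.06, adjusted p = 0.000646), and no other array of the series was below 45772. It alone held in every leave-out. The fall count was 1 without wild-type replicate 2 or either Δcgs1 array, 2 without either array labelled Δpka1 and 3 without either Δppt1 array. The master regulators of sexual differentiation, mei2 (-0.95, adjusted p = 0.027) and ste11 (-0.69, adjusted p = 0.0144), fell but did not hold in every leave-out. The glutamate dehydrogenase gene gdh2 rose (0.57, adjusted p = 0.0274), lost without wild-type replicate 1, either Δppt1 array or either Δcgs1 array.

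Of 33 genes of mating and pheromone response 5 fell and none rose (15.2%, against 7.35% of all genes, median -0.12), with mei2 and ste11 among them. The count was 8 without wild-type replicate 1, 1 without wild-type replicate 2 or either Δcgs1 array, 3 without Δppt1 replicate 2 or either array labelled Δpka1, and 0 without the slide term. Only ste7 held in every leave-out (-0.43, adjusted p = 0.00608). Directly against the arrays labelled Δpka1, where mei2 read 59554 and 57790 and Δppt1 5852 and 3980, 17 of the 33 were lower in Δppt1 (16.1% of all genes were), and 18 were higher in those arrays than in wild type. Against Δcgs1, 4 of the 33 were lower, where 14.3% of all genes were.

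Stress genes rose in some members. Among 31 core environmental stress response genes, 7 rose and 1 fell (25.8% called, against 12.9% of all genes, median 0.15), 3 and 1 of them in every leave-out. The rises numbered 3 without wild-type replicate 1, either Δcgs1 array, either array labelled Δpka1 or the slide term, and 4 without either Δppt1 array. Besides srx1, the small heat-shock gene hsp9 went from 8456 and 10974 to 21937 and 28592 (1.38, SE 0.08, adjusted p = 0.00156), and hri1, for a kinase of translation factor eIF2α, from 7427 and 8520 to 15794 and 17594 (1.07, SE 0.05, adjusted p = 0.000646). For hsp9 the arrays labelled Δpka1 were higher still, at 50649 and 54035, and Δppt1 was 1.06 below them (log2 difference -1.06, adjusted p = 0.000691). The metallothionein gene zym1 rose (0.61, adjusted p = 0.0416), called in 1 leave-out of 8. The fall was that of sro1 (-0.75, adjusted p = 0.00534). Heat-shock chaperones, with 24 genes, had 1 that rose and 3 that fell (16.7% called, against 12.9% of all genes), none of them in every leave-out. Of 21 genes of the stress MAP kinase pathway 3 rose and 1 fell (19% called, against 12.9% of all genes). The rises numbered 0 in each of the 8 leave-outs and without the slide term, and the falls 0 to 2.

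Ribosome assembly genes were shifted down by a small, widespread amount. Of 70 genes 66 were below 0 (41.2% of all genes were above 0), 23 were called lower and none higher (32.9%, against 7.35% of all genes, median -0.19). The calls depended on single arrays. The count was 1 without wild-type replicate 2 or either Δcgs1 array, 5 without wild-type replicate 1, 7 and 4 without Δppt1 replicate 1 and 2, 8 without either array labelled Δpka1, and 0 without the slide term. The largest called differences were those of rrp16 (-0.41, adjusted p = 0.0237), rsa4 (-0.38), has1 (-0.38) and rrp1 (-0.37, adjusted p = 0.00608), and rrp1 was the 1 gene that held in every leave-out. Against the arrays labelled Δpka1 the direction was the opposite, with 34 of 70 higher in Δppt1 and 1 lower (22.4% and 16.1% of all genes were). In those arrays 56 of the 70 were lower than in wild type and none higher (median -0.37). Of 132 cytosolic ribosomal protein genes 1 fell and none rose (0.758%, against 7.35% of all genes), but 98 were near the top of the scale. Of 48 mitochondrial ribosomal protein genes 9 fell (18.8%, against 7.35% of all genes, median -0.09) and 1, mrpl22 (-0.66, adjusted p = 0.00299), held in every leave-out. That count was 1 without wild-type replicate 2 or either Δcgs1 array, 2 without either array labelled Δpka1, 3 without wild-type replicate 1 and 4 without Δppt1 replicate 2. Of 29 genes of mitochondrial import and proteostasis 5 fell (17.2%, against 7.35% of all genes), none in every leave-out.

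Of 26 genes of glycolysis, fermentation and glycerol metabolism 3 fell and none rose (11.5%, against 7.35% of all genes), and 17 of the 26 were near the top of the scale. The glycerol dehydrogenase gene gld1 went from 17541 and 20130 to 11555 and 12347 (-0.65, SE 0.04, adjusted p = 0.00225). Of 23 genes of hexose transport and of enzymes that glucose represses 5 rose and 2 fell (30.4% called, against 12.9% of all genes, median -0.01). The α-glucosidase gene agl1 (0.72, adjusted p = 0.00437) and the galactose gene gal7 (0.70, adjusted p = 0.00943) rose in every leave-out, agl1 from 11719 and 12755 to 19529 and 20880. The rises numbered 2 without Δppt1 replicate 1 or either Δcgs1 array, 3 without wild-type replicate 1 or Δppt1 replicate 2, and 1 without the slide term. The hexose transporter gene ght3 was at background in wild type and read 3403 and 2627 in Δppt1 (at least 1.2-fold higher, adjusted p = 0.0253). It lies beside shu1. Against Δcgs1, 6 of the 23 genes were higher and 6 lower in Δppt1 (6.28% and 14.3% of all genes were). Against the arrays labelled Δpka1 17 were lower (16.1% of all genes were), and 19 of the 23 were higher in those arrays than in wild type.

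**Figure D5:**
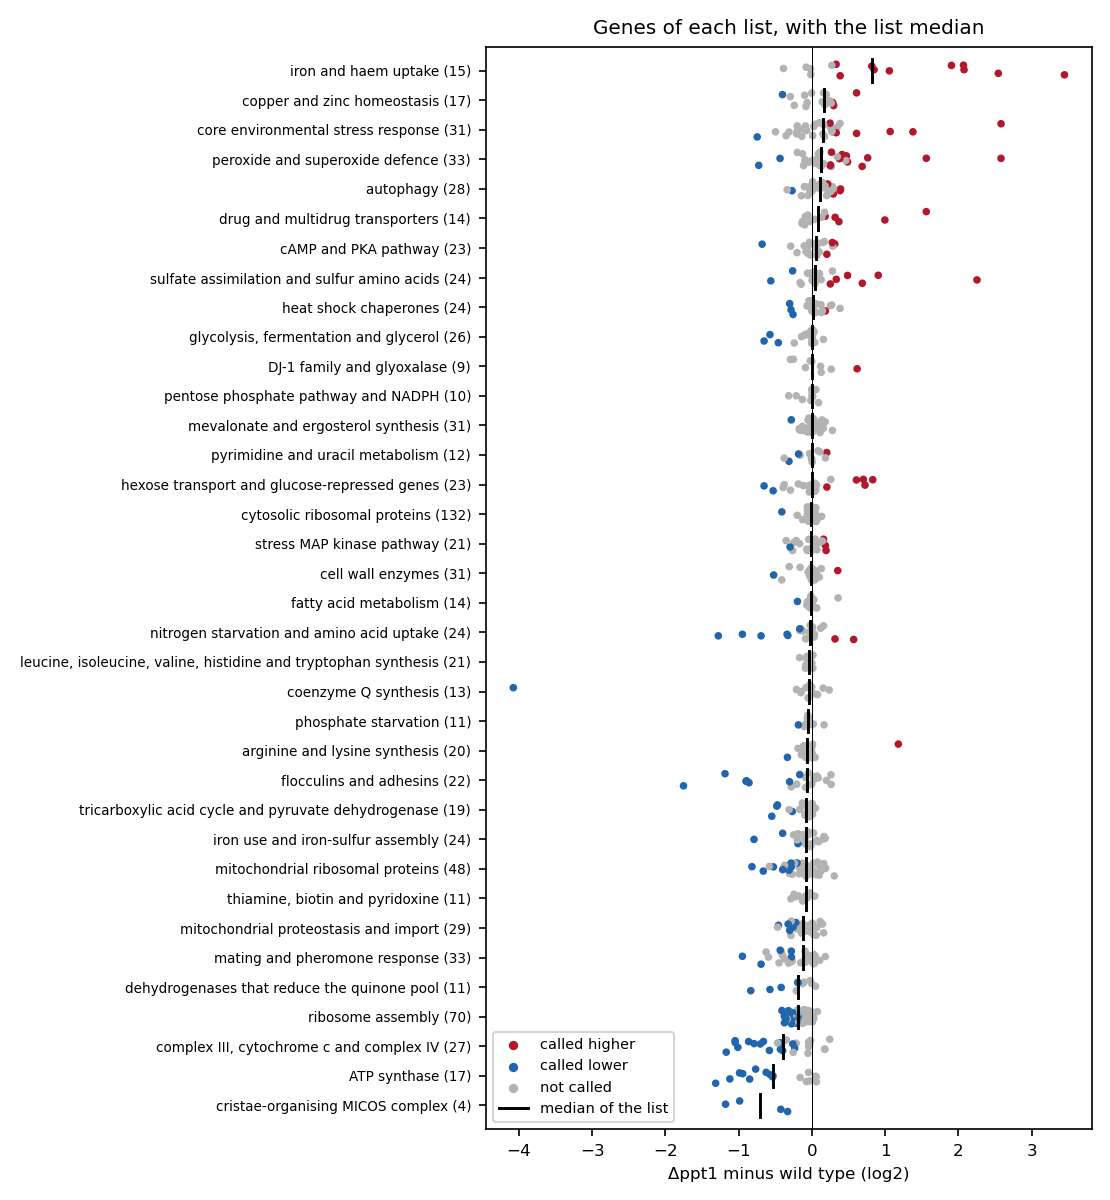
Each point is 1 gene of a list, placed by its log2 difference of Δppt1 minus wild type, with red for called higher, blue for called lower and grey for not called. Black bars are list medians, the number of measured genes is in brackets, and a gene can stand in more than 1 list. Iron and haem uptake lies at the top with a median of 0.82, and MICOS, ATP synthase and the complex III and IV list lie at the bottom with -0.71, -0.54 and -0.40.

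Lists with a median near 0 and at most 3 calls were also measured. Over all genes 12.9% were called. Of 31 genes of mevalonate and ergosterol synthesis, which shares its isoprenoid precursors with the coenzyme Q tail, 1 fell (erg32, -0.28, adjusted p = 0.0489, lost in 7 of 8 leave-outs) and none rose. Calls made up 3.23% of this list, and 11 of the 31 were near the top of the scale. No gene was called among 21 of leucine, isoleucine, valine, histidine and tryptophan synthesis, 10 of the pentose phosphate pathway or 11 of thiamine, biotin and pyridoxine metabolism. Their largest values were trp3 at -0.17, gcd1 at -0.32 and nmt1 at -0.29. In these lists 10, 5 and 2 genes were near the top of the scale, where differences are compressed. In 20 genes of arginine and lysine metabolism the arginase gene car1 rose, from 11329 and 17016 to 26541 and 37231 (1.18, SE 0.05, adjusted p = 0.000646), and held in every leave-out. It was not called without the slide term (adjusted p = 0.197). The other call of the list was the fall of arg7 (-0.33, adjusted p = 0.0318), which was kept in 1 leave-out of 8. Calls made up 10% of this list, and 12 of the 20 were near the top of the scale. Of 12 pyrimidine genes 1 rose and 2 fell (25% called, against 12.9% of all genes), none in every leave-out, with ura2 at -0.18 and cdd1 at -0.31. Other lists had 1 or 2 calls each. There was 1 fall among 11 phosphate starvation genes (9.09% called) and 1 among 14 of fatty acid metabolism (7.14%). There were 1 rise and 1 fall among 31 cell wall enzymes (6.45%) and 1 rise among 9 genes of the DJ-1 and glyoxalase families (11.1%). Of the genes of these lists, 3, 6, 11 and 0 were near the top of the scale.

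Across all genes, Δppt1 differed from Δcgs1 in 1015 (20.5%, 310 higher and 705 lower) and from the arrays labelled Δpka1 in 1903 (38.5%, 1108 higher and 795 lower). These contrasts use the Δppt1 arrays again. Of the 273 genes higher than wild type, 211 were also higher than Δcgs1, 157 than the arrays labelled Δpka1 and 130 than both. Of the 363 lower than wild type, 319, 183 and 171 were lower. The targeted gene of the first of these strains, cgs1, and ura4 differ by construction.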

How the data were processed

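Total RNA of 4 strains, 2 cultures each, was hybridised to 1-colour NimbleGen arrays. The authors deposited 1 linear intensity per gene and array, per the file headers a summary over probes (14 for 4922 of 4940 genes, fewer for 18). Other deposited columns, named here as other units, hold an error and a probe number, per the file headers, and no test used them. What software summarised and normalized them was not given in the sources used here. A deposited table of the whole series held the same values (largest difference 0). With 2 arrays per strain, their number limits the precision. The p-values rest on the spread left after the slide term, pooled over the 4 strains and moderated across genes. Slide and culture replicate share 1 number, so a shift common to the cultures of a replicate is removed with the slide. The median SE was 0.0589 with the slide term and 0.143 without it.

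Intensities were taken to log2 with no further scaling. limma 3.58.1 in R 4.3.3 fitted 1 mean per strain and slide as a block to all 8 arrays (3 residual degrees of freedom), with two-sided moderated tests and Benjamini-Hochberg adjustment over 4940 genes. The titles place arrays of a replicate number on 1 slide, and same-slide arrays deviated together (r from 0.351 to 0.69 over 6 strain pairs). The lowest value was that of wild type with Δppt1, the pair compared here. Replicate numbers were taken to pair the samples. Alternatives were the fit without the block, other normalizations, an offset, filters on dim and bright genes, other variance models, a fold requirement and leaving out each array.

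Named were the targeted and marker genes, the 15 genes called with the largest rise and the 15 with the largest fall, up to 4 called members of each list, and the coenzyme Q, dehydrogenase and sulfate genes. Further members were named after their values were seen. The genes compared, the 36 lists (863 genes, 173 called) and the tests were chosen with earlier results of these data known. After values were seen, 37 wrong list entries were removed, 1 list was added, and complexes were split into subunits and factors. Symbols and gene order came from a RefSeq table (ASM294v3) that held 4913 genes, 4147 with a symbol. Positions are not printed, since no build is named in the files.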

Additional observations from a re-analysis of the deposited data

How the results depend on the processing

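Array number is the main limit. Beside the 636 genes called against wild type, 50 were called with no replicate block, 11 with the block and the 4 arrays of wild type and Δppt1 only, 300 without the arrays labelled Δpka1, 1176 after quantile normalization, 1126 after cyclic loess, 137 with at least 1.5-fold required, and 186 to 402 when 1 array was left out. The share of higher calls was 42.9%, against 50.4% after cyclic loess, 68% with no block, 100% with the 4 arrays, 26.1% without wild-type replicate 1, 32.6% without Δppt1 replicate 1, 61.3% without wild-type replicate 2 and 44.7% to 51.5% without another array, so which direction holds the majority depends on single arrays. Leaving out an array leaves 2 residual degrees of freedom, and its strain is then 1 array assumed to vary like the others. The 4 arrays alone leave 1, where ppt1 kept -4.08 (adjusted p = 0.0676). Of list members 173 were called, against 26 with no block, 6 with the 4 arrays, 97 without the arrays labelled Δpka1, 58 at 1.5-fold, and 66 to 116 with 1 array left out. Against Δcgs1 the 1015 calls became 88 with no block, 625 without the arrays labelled Δpka1, 183 at 1.5-fold and 117 to 1047 with 1 array left out. Against the arrays labelled Δpka1 the 1903 calls became 474, 471 at 1.5-fold, and 1041 to 1921. Beyond fewer arrays, the cause of a changed count was not tested. No gene among the 636 changed sign under other normalizations, with the offset or without a wild-type or Δppt1 array. The other alternatives leave the difference as it is, so no sign could change there. Signals near 2497 or near the top of the scale limit what can be seen.

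Some genes that were not called and lay near 0 changed sign. With medians matched the values were 0.0077 for met26, 0.0075 for coq11 and 0.0063 for ura3. With cyclic loess they were 0.011, 0.0228 and 0.0104, and with quantile normalization coq11 was at 0.02. With 1 array left out the values ran from -0.0368 to 0.2259 for met16, -0.0802 to 0.2144 for cgs1, -0.0392 to 0.1086 for coq4, -0.1009 to 0.0949 for coq11, -0.018 to 0.0096 for ura3, -0.0554 to 0.0174 for pcs2, -0.1466 to 0.0895 for coq10, -0.1285 to 0.0355 for coq5, -0.1114 to 0.0059 for dlp1 and -0.2173 to 0.0037 for sdh2.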

Other observations

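Called genes lay beside each other in the genome more often than genes in general. In the order of the 4913 genes of the RefSeq table, 67 of the 271 higher genes placed there (24.7%) had a higher gene as a direct neighbour, against 525 of all genes (10.7%). Of 359 lower genes 74 (20.6%) had a lower neighbour, against 691 of all genes (14.1%). No test was made of these shares, and overlapping or divergent transcripts were not separated, since the label covers both strands. Of 3 runs of 4 higher genes, 1 was made of ght3, shu1, str3 and hhy1, which rose by 0.83, 2.54, 3.45 and 0.89. Other pairs were fip1 and fio1, sib1 and sib2, and srx1 with SPBC106.03. The gene osr1 stood beside SPCC663.08c and SPCC663.09c, and among the falls cyc3 stood between the4 and ste11.

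Of 28 autophagy genes 4 rose, 1 fell and 23 were not called (17.9% called, against 12.9% of all genes). None of the 5 held in every leave-out or was called without the slide term. The list median was 0.11, between 0.001 and 0.17 with 1 array left out. The ubiquitin-like gene atg8 read 11945 and 14443 in wild type against 15063 and 19495 in Δppt1 (0.38, adjusted p = 0.0215), and its protease gene atg4 was at 0.39 (adjusted p = 0.0372). Against Δcgs1, 2 were higher and 4 lower in Δppt1 (6.28% and 14.3% of all genes were), with a median of -0.00. Against the arrays labelled Δpka1 1 was higher and 15 lower (22.4% and 16.1% of all genes were). Of the 28, 17 were higher in those arrays than in wild type. In copper and zinc homeostasis 3 of 17 genes rose, zym1, ccs1 (0.30) and cuf2 (0.28), and the copper transporter gene ctr5 fell (-0.40). Calls made up 23.5% of this list, against 12.9% of all genes. In the cAMP pathway 3 of 23 genes rose by 0.31 or less and 1 fell (17.4% called, against 12.9% of all genes). The gene that fell was rsv1, for a transcription factor that PKA restrains (-0.68, adjusted p = 0.0144). None of these called genes of either list held in every leave-out.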
